A study of Homo sapiens with 8 samples.

Results

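The genes of the collagen and laminin chains were examined in A549 cells. Members were chosen by symbol, as protein-coding genes named COL or LAM with a chain number, and by a total of at least 50 counts over the 8 libraries. The rule selected 37 genes, 26 collagens and 11 laminins, of 56 symbol matches and of 60664 genes in the count table. Because the total count chose them, their overall level is a description, and the rule itself uses no comparison between treatments. The gene set was chosen with earlier results of these data known, so the comparisons may not be independent of that choice. Just inside the limit stood COL13A1 with 52 counts in total, LAMB4 with 56 and COL9A3 with 64. Just outside stood COL23A1 with 48, COL5A3 and COL24A1 with 45 each and COL28A1 with 44. COL1A2, COL9A1 and COL10A1 were at 0 counts in every library. COL6A3, COL9A3, COL13A1, COL17A1 and LAMB4 would have fallen under 50 without the group in which they were highest, so that a difference between groups was partly built into their selection.

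A549 is a human lung adenocarcinoma line with features of alveolar epithelium. Its mRNA was sequenced in 4 groups of 2 libraries each. One group was left untreated, one received 20 ng of interferon gamma (IFN-γ), given as a concentration per mL in the methods, one received AX-0085 at 0.5 µM, and one received both. AX-0085, a small-molecule kinase inhibitor known by its code name, went onto the cells 24 h after the cytokine, and cells were collected 24 h later. No vehicle is named for the untreated and IFN-γ groups. All libraries came from this 1 line, and nothing in the labels says that the 2 libraries of a group came from separate cultures, so that p-values measure the spread between these libraries, which may be technical.

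Collagens and laminins are the main structural proteins of the extracellular matrix. Collagens are trimers that form fibrils, sheets, beaded filaments or anchoring structures, and laminins are trimers of an alpha, a beta and a gamma chain that epithelial cells lay down on collagen IV to build the basement membrane. The laminin that contains the LAMA3 and LAMB3 chains fixes epithelium to the matrix and accompanies cell migration, and the laminins with the LAMA5, LAMB1 or LAMB2 and LAMC1 chains are general constituents of lung basement membranes. IFN-γ acts through its receptor and JAK kinases, and the gamma-activated site is a DNA element of genes that respond to it.

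Start-site sequence bears on 2 features of these genes, paired transcription and the gamma-activated site, and is shown for those reasons. A further sequence is shown for the AP-1 site, which was not among the motifs first planned. COL4A1 and COL4A2, the 2 main collagen IV chains, start back to back on chromosome 13. The 126 bases between their RefSeq starts, chr13:110307158-110307283 on the plus strand of GRCh38.p14, are the shared stretch:
COL4A1-COL4A2: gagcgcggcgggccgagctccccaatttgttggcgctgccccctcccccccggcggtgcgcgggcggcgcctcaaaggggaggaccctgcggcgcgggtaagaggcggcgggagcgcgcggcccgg

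Upstream windows of 250 bases were present in the RefSeq table for 29 of the 37 genes and were searched on both strands for the gamma-activated site, TTCNNNGAA, whose letters read the same on both strands. It occurred in 2 of the 29, COL7A1 and LAMB2, against 6.57% of 35116 windows over all genes. The COL4A1-COL4A2 stretch held none. The COL7A1 window, chr3:48595330-48595579 on the minus strand, held 2 overlap-free matches, starting at -162 and -152 from the start site, and the LAMB2 window, chr3:49133051-49133300 on the minus strand, held 1 at -49. Capitals mark the matches in these windows, which run 5′ to 3′ and end at the base before the start:
COL7A1: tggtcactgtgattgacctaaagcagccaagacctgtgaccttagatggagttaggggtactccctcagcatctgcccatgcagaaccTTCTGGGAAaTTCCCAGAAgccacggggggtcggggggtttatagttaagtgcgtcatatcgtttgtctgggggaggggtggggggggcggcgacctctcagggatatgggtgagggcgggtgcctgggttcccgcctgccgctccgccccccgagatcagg
LAMB2: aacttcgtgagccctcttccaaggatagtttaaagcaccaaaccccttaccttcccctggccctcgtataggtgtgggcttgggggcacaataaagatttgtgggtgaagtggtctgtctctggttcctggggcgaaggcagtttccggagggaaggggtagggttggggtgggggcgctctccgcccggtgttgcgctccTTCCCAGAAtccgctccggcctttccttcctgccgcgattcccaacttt

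The AP-1 site, TGANTCA, a motif added to the search later, occurred in 1 of the 29 windows, that of LAMA3, against 6.57% of all windows. It lies at 2 places in chr18:23872770-23873019 on the plus strand, at -125 and -69 from an internal start that lies 183567 bases from the start of the longest-form transcript. Capitals mark these 2 matches:
LAMA3: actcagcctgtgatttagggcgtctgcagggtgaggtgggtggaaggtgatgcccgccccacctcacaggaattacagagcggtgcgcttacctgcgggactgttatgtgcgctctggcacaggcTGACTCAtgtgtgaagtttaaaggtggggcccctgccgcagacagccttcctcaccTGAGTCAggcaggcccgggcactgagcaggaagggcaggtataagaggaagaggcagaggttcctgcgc

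COL1A1, COL5A2, COL6A1, COL9A3, COL20A1, COL22A1 and LAMC3 had no window. A match to a motif describes the letters and is not evidence of binding.

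Library totals ranged from 20672828 to 29978251 counts, so that 3 counts, the limit that a count of 0 allows, equal a level of 0.0959 to 0.158 CPM, the usual unit of counts scaled to a common library total, a limit for counting error only. The treatments were visible in the interferon target GBP1, which had 1 to 4 counts without IFN-γ, 323 and 336.8 CPM with it and 2.33 and 2.38 CPM with both agents. The epithelial label held for the keratins KRT7, KRT8 and KRT18, at 927.1 to 4516 CPM. CDH1 was at 10.7 to 81.8 CPM, KRT19 at 9.53 to 46.5 CPM and EPCAM at 0.281 to 8.62 CPM. By the limits given below, 5 of the 6 epithelial markers fell with IFN-γ, where 17.2% of all genes tested fell. With AX-0085 added to IFN-γ 3 of them rose, where 16.5% of all genes rose. The summed level of the 6, which weighs abundant genes most, was 8821 and 9550 CPM in untreated libraries and 7398 and 6512 with IFN-γ. It was 7304 and 7221 with both and 6089 and 5759 with AX-0085. Whether this bears on the matrix genes was not tested. The fibroblast markers reached 7 counts at most in any library, with THY1 and FAP at 0 throughout and 0.352 to 0.602 CPM for the whole list of 7. The 4 endothelial markers reached 6 counts, and of the 5 leukocyte markers only ITGAM, with 30 to 73 counts, exceeded 1.

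A gene was called where edgeR's quasi-likelihood test gave a Benjamini-Hochberg adjusted p under 0.05 over all 15066 genes tested and the change was over 2-fold, which is 1 on the log2 scale. All 37 members were among those tested. With IFN-γ, 5 members rose and 8 fell against untreated, where 10.3% of all genes tested rose and 17.2% fell. When the inhibitor joined IFN-γ, 10 rose and 4 fell against IFN-γ alone, with 16.5% and 8.28% of all genes. AX-0085 alone raised 6 and lowered 6, with 6.41% and 5.62% of all genes. Cells given both agents differed from untreated cells in 3 members that were higher and 6 that were lower, with 7.51% and 7.23% of all genes. The median log2 difference of the members was -0.18, 0.25, -0.07 and -0.05 in these 4 comparisons, beside -0.06, 0.03, 0.01 and 0.01 over all genes. In bulk RNA, fewer cells expressing a gene and less RNA per cell cannot be told apart. Without the 5 members that met the count limit only through their highest group, a count chosen after the data were seen, 5 rose and 7 fell with IFN-γ, 9 and 3 with AX-0085 added, 6 and 4 with AX-0085 alone and 3 and 4 with both against untreated. Comparisons share groups, so their values are set side by side and not counted against each other.

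Collagens and laminins were also counted apart. Of the 26 collagens, 2 rose and 8 fell with IFN-γ, with a median of -0.30 on the log2 scale. Among these 8, COL17A1, COL20A1, COL21A1 and COL26A1 had only 0 to 9 counts in each IFN-γ library. Of the 11 laminins, 3 rose and 0 fell, with a median of 0.53. Among all genes tested, 10.3% rose and 17.2% fell. These counts are small, and a difference between the 2 classes was not tested. At an adjusted p under 0.05 without the fold limit, the laminins counted 7 higher and 2 lower in the same edgeR test, and the collagens 6 higher and 11 lower, where 32.1% of all genes tested were higher and 36% lower. With AX-0085 added to IFN-γ, 8 collagens rose and 2 fell, and 2 laminins rose and 2 fell, beside 16.5% and 8.28% of all genes. With AX-0085 alone, 4 collagens rose and 4 fell, and 2 laminins rose and 2 fell, beside 6.41% and 5.62%. With both agents against untreated cells, 1 collagen rose and 4 fell, and 2 laminins rose and 2 fell, beside 7.51% and 7.23%. These collagen counts were partly fixed by the selection, since COL9A3, COL13A1 and COL17A1 met the count limit only through their highest group. COL17A1 is among the falls with IFN-γ, and COL9A3 rose and COL13A1 fell with AX-0085 added. COL13A1 and COL17A1 are both among the falls with AX-0085 alone and with both agents.

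**Figure D1:**
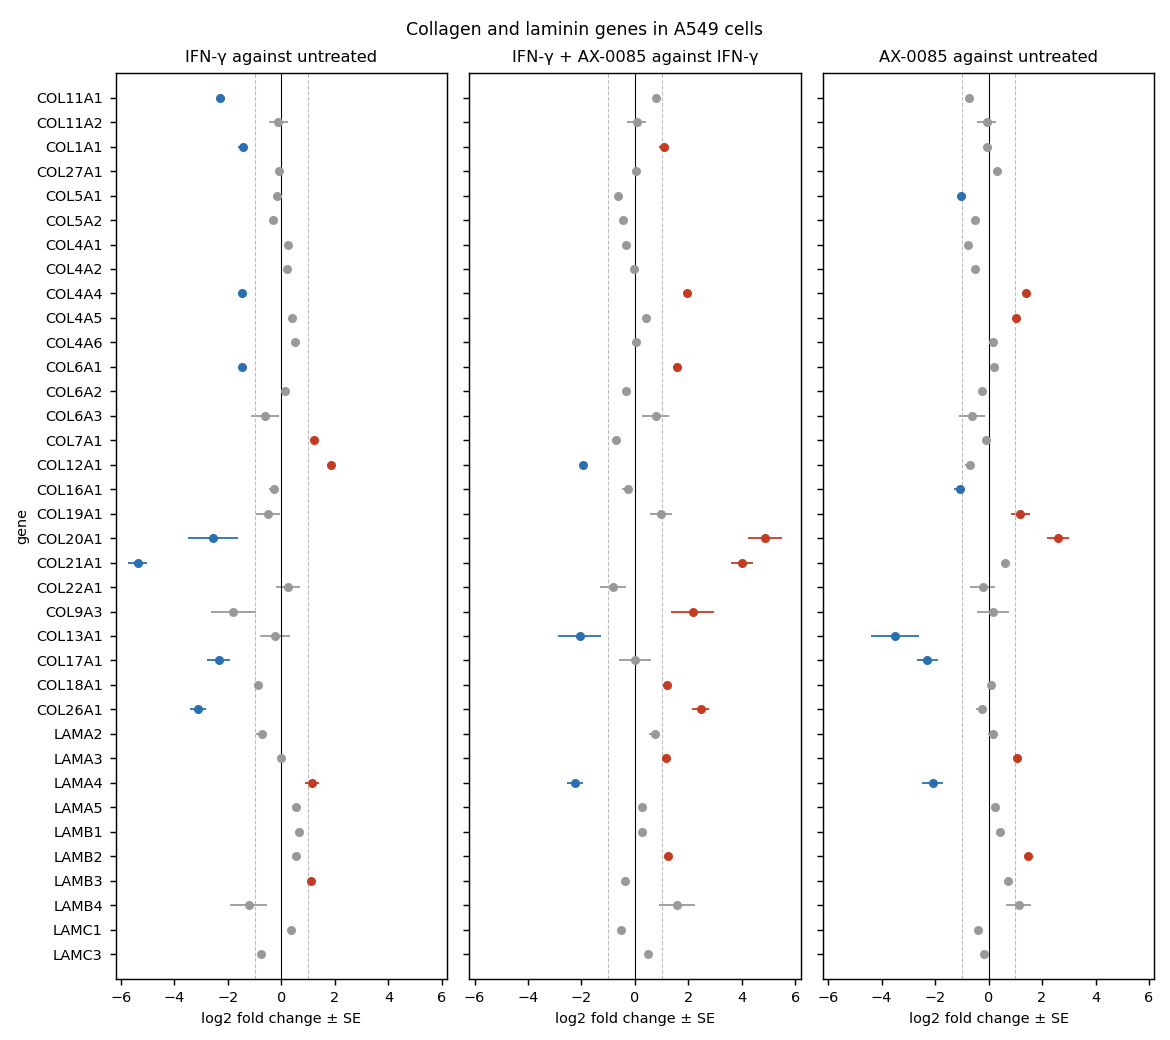
Log2 fold change of the reported members (rows) in 3 comparisons (panels), with the standard error (SE) as a bar. Red points were called higher, blue points lower and grey points neither, and dashed lines mark the 2-fold limit. The longest excursions are those of COL21A1, COL20A1, COL26A1 and COL13A1. The differences of COL13A1 were partly fixed by its selection, since it met the count limit only through its untreated group. COL21A1, COL20A1, COL26A1, COL6A1, COL4A4 and COL1A1 are blue in the IFN-γ panel and red in the panel where AX-0085 was added. Those 2 panels share the IFN-γ libraries, so their opposite calls are not independent. The share of all genes with both calls was not computed.

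Among the laminins, the alpha 3 and beta 3 chains, which belong to the same trimer, took different orders over the groups. LAMA3 (ENSG00000053747, chr18:23689453-23956222) had 58.2 and 47.7 CPM untreated, 54.8 and 50.9 with IFN-γ, 126.7 and 109.3 with both and 113.2 and 107.1 with AX-0085. All 4 libraries with AX-0085 lay above the 4 without it, and the untreated and IFN-γ libraries overlapped. LAMA3 rose by 1.05 on the log2 scale with AX-0085 alone (SE 0.09, adjusted p = 1.02e-06 in edgeR's quasi-likelihood test) and by 1.16 with AX-0085 on top of IFN-γ (SE 0.10, edgeR adjusted p = 2.01e-07), while its value for IFN-γ alone was -0.01 (SE 0.10, 95% interval -0.22 to 0.20). The rise with AX-0085 alone was 0.92 without untreated replicate 2, which is under the 2-fold limit. With both agents it was 1.15 above untreated cells (SE 0.09, edgeR adjusted p = 3.25e-07).

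LAMB3 (ENSG00000196878, chr1:209614870-209652425), the beta 3 chain, had 12.0 and 12.1 CPM untreated, 27.2 and 24.7 with IFN-γ, 20.2 and 19.3 with both and 20.7 and 19.7 with AX-0085. The untreated libraries were lowest and the IFN-γ libraries highest, with the other 4 in between. It rose by 1.10 with IFN-γ (SE 0.09, edgeR adjusted p = 1.02e-07), a value of 0.99 and no call when libraries were scaled by their totals alone. AX-0085 alone gave 0.74 (SE 0.09) and AX-0085 added to IFN-γ -0.39 (SE 0.08), both under the 2-fold limit.

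Per length, as RPKM, which divides CPM by the canonical transcript length in kilobases, the level of LAMA3 was 1.83 and 1.49 times that of LAMB3 in untreated libraries, 0.759 and 0.776 times with IFN-γ, 2.37 and 2.13 times with both and 2.06 times in each library with AX-0085. LAMA3 was below LAMB3 in the 2 IFN-γ libraries and above it in the other 6. The LAMA3 length is that of its long transcript, and counts per gene do not separate it from the shorter one that starts inside the gene, so the ratio depends on that choice.

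**Figure D2:**
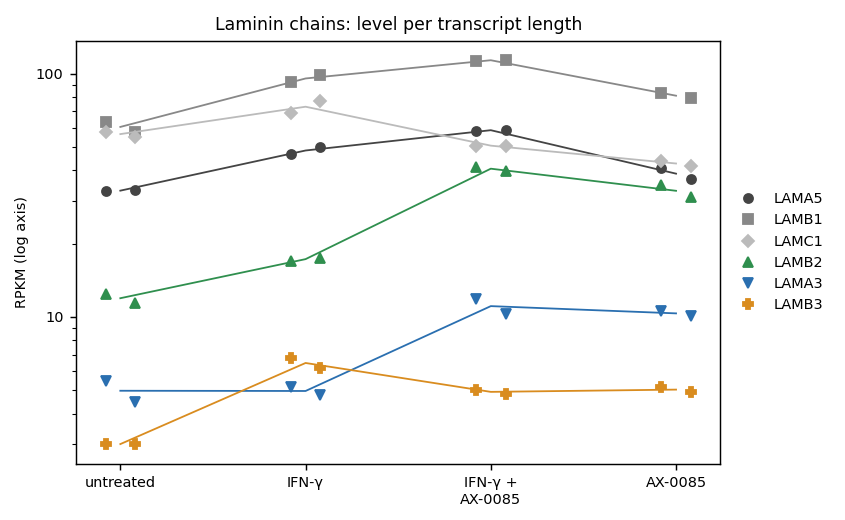
Level per transcript length of 6 laminin chains in each library (points, 2 per group), in RPKM on a log axis, with lines joining the group means. LAMB2 and LAMA3 are higher in both groups with AX-0085, LAMB3 is highest with IFN-γ, at 6.78 and 6.16 RPKM, and LAMA5 and LAMB1 are highest with both agents.

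Chains of the general basement membrane laminins were the most abundant members. LAMA5, LAMB1 and LAMC1 averaged 510.1, 494.8 and 441.4 CPM over the 8 libraries and were called in no comparison. LAMA5 had 375.6 and 379.0 CPM untreated, 533.6 and 569.7 with IFN-γ, 665.5 and 671.4 with both and 465.3 and 420.9 with AX-0085. LAMB1 had 356.4 and 325.5, 520.6 and 557.8, 639.2 and 642.6, and 469.2 and 446.9 CPM in the same order. For both genes the groups did not overlap, and the order was untreated, AX-0085, IFN-γ and both. Against untreated cells, the log2 differences with IFN-γ were 0.55 for LAMA5 and 0.66 for LAMB1, and with both agents 0.83 and 0.91, each with an SE of 0.06 or 0.07. LAMC1 took another order, with 457.3 and 436.8 CPM untreated, 548.0 and 610.5 with IFN-γ, 400.8 in each library with both and 346.5 and 330.5 with AX-0085. Its difference was 0.37 with IFN-γ (SE 0.06) and -0.53 when AX-0085 was added (SE 0.06).

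LAMB2 (ENSG00000172037, chr3:49121114-49133118), the beta 2 chain and the other gene with a gamma-activated site match printed above, had 70.8 and 65.0 CPM untreated, 96.8 and 99.9 with IFN-γ, 236.0 and 226.7 with both and 198.0 and 177.4 with AX-0085. The 4 groups did not overlap, and both groups with AX-0085 lay above both without it. It rose by 1.47 with AX-0085 alone (SE 0.07, edgeR adjusted p = 3.02e-09), by 1.23 with AX-0085 on top of IFN-γ (SE 0.07, edgeR adjusted p = 3.77e-09) and by 1.77 with both against untreated (SE 0.07, edgeR adjusted p = 4.90e-10). With IFN-γ alone the value was 0.53 (SE 0.07), under the 2-fold limit. Per length, LAMB2 stood at 0.197 and 0.198 times LAMB1 in untreated libraries, 0.185 and 0.178 with IFN-γ, 0.367 and 0.350 with both and 0.419 and 0.394 with AX-0085.

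LAMA4, a chain best known from endothelium and mesenchyme, was scarce. It had 31 and 24 counts untreated, 42 and 55 with IFN-γ, 15 and 10 with both and 8 and 4 with AX-0085. It rose by 1.14 with IFN-γ (SE 0.25), fell by 2.23 on the log2 scale when AX-0085 was added (SE 0.29) and fell by 2.09 with AX-0085 alone (SE 0.38), and its value for both against untreated was -1.10 (SE 0.33), a call lost without untreated replicate 1 or without either combined library, with edgeR adjusted p of 0.0652, 0.0719 and 0.054. LAMA2, LAMB4 and LAMC3 were called in no comparison.

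The collagen IV network of the basement membrane was represented by 5 of its 6 chains, COL4A3 having only 19 counts in total. COL4A1 and COL4A2, which share the printed start region, had 70.7 to 160.1 and 171.9 to 294.6 CPM and were called nowhere. With AX-0085 alone their values were -0.78 (SE 0.08) and -0.49 (SE 0.06) on the log2 scale, and their lowest libraries were the 2 with AX-0085 alone. Per length, COL4A2 was at 1.91 and 2.12 times COL4A1 in untreated libraries and 2.14 and 1.87 times with IFN-γ. The ratio was 2.36 and 2.50 with both and 2.56 and 2.35 with AX-0085 alone. Every library with AX-0085 thus had a higher ratio than every library without it, a difference that was not tested.

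COL4A4 (ENSG00000081052, chr2:227002714-227164453), a chain of the collagen IV of kidney, lung and eye basement membranes, had 11.9 and 10.3 CPM untreated, 4.38 and 3.74 with IFN-γ, 15.6 and 15.2 with both and 29.0 and 30.2 with AX-0085. The 4 groups did not overlap, with the IFN-γ libraries lowest and those with AX-0085 alone highest. It fell with IFN-γ by 1.47 on the log2 scale (SE 0.12, edgeR adjusted p = 1.99e-07), rose with AX-0085 added to IFN-γ by 1.94 (SE 0.12, edgeR adjusted p = 1.26e-08) and rose with AX-0085 alone by 1.41 (SE 0.09, edgeR adjusted p = 7.37e-08). Its partner chain COL4A5 (ENSG00000188153, chrX:108439838-108697545) had 45.4 and 36.3 CPM untreated, 48.5 and 58.3 with IFN-γ, 72.7 and 70.7 with both and 84.3 and 82.3 with AX-0085. It was lowest in untreated cells and, like COL4A4, highest with AX-0085 alone. The rise with AX-0085 alone was 1.03 (SE 0.10, edgeR adjusted p = 2.77e-06) and 0.87, under the 2-fold limit, without untreated replicate 2. COL4A6, which lies head to head with COL4A5 with 379 bases between the nearest RefSeq starts and 1415 from the COL4A6 start whose window was searched, was called nowhere and had a log2 value of 0.15 with AX-0085 alone (SE 0.08). The COL4A6 level per length was 1.83 and 2.04 times that of COL4A5 in untreated libraries and 1.03 and 1.06 times with AX-0085 alone.

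**Figure D3:**
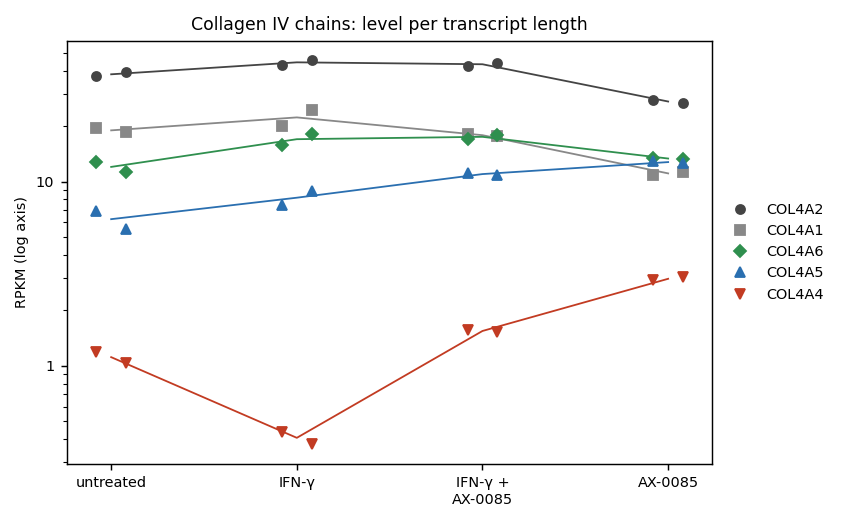
Level per transcript length of the 5 collagen IV chains in each library (points, 2 per group), in RPKM on a log axis, with lines joining the group means. COL4A4 runs from 0.439 and 0.374 RPKM with IFN-γ to 2.91 and 3.03 with AX-0085 alone, while COL4A1 and COL4A2 are lowest with AX-0085 alone.

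Of the collagens that fasten or border basement membranes, COL7A1 (ENSG00000114270, chr3:48564073-48595329) forms the anchoring fibrils under epithelia and is the gene whose window holds the 2 gamma-activated site matches printed above. It had 103.2 and 100.9 CPM untreated, 229.2 and 246.1 with IFN-γ, 152.5 and 136.0 with both and 98.5 and 91.9 with AX-0085. The IFN-γ libraries were highest, those with both came next, and the untreated and AX-0085 libraries lay close together without overlap. It rose with IFN-γ by 1.22 (SE 0.07, edgeR adjusted p = 3.67e-09). Adding AX-0085 gave -0.72 (SE 0.07), under the 2-fold limit, and the group with both agents remained 0.50 (SE 0.07) above untreated.

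COL18A1 (ENSG00000182871, chr21:45405165-45513720), the heparan sulfate collagen from which endostatin is cut, had 135.3 and 170.7 CPM untreated, 82.4 and 82.9 with IFN-γ, 181.1 and 196.3 with both and 177.1 and 150.5 with AX-0085. The IFN-γ libraries were lowest, and the untreated and AX-0085 libraries overlapped. The value for IFN-γ was -0.89 (SE 0.10), under the 2-fold limit, and it rose by 1.19 when AX-0085 was added (SE 0.10, edgeR adjusted p = 2.92e-07). Exons of other genes on the opposite strand cover 18.5% of its exon bases, against 3.2% or less for every other member, and the strand setting of the counting is not given in the sources used here.

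COL17A1, the transmembrane collagen of hemidesmosomes, which binds the laminin that contains LAMA3, had 29 counts in each untreated library and 3 to 6 in each of the other 6. Its total without the untreated group was 31 counts, under the limit of 50, so that a lower level in treated cells was partly fixed by its selection, and its values of -2.35 on the log2 scale with IFN-γ and -2.29 with AX-0085 alone are given as a description. Cells with both agents had a value of -2.34 against untreated, and the value for AX-0085 added to IFN-γ was 0.01 (SE 0.60).

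Among the fibrillar collagens, COL5A2 was the most abundant, at 196.8 to 346.4 CPM. It was called nowhere, although its highest libraries were the 2 untreated ones and its lowest the 2 with both agents, at -0.76 on the log2 scale against untreated (SE 0.06). COL11A1 (ENSG00000060718, chr1:102876467-103108872), a minor fibril chain that sets fibril diameter, had 16.9 and 14.1 CPM untreated, 3.22 and 3.18 with IFN-γ, 5.76 and 5.30 with both and 9.32 and 9.60 with AX-0085. The 4 groups did not overlap and every treated library was below the untreated ones. It fell by 2.28 with IFN-γ (SE 0.13, edgeR adjusted p = 6.38e-09). With both agents its value against untreated cells was -1.49 (SE 0.12, edgeR adjusted p = 2.64e-07), and the added AX-0085 gave 0.80 (SE 0.15), under the 2-fold limit.

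COL1A1 (ENSG00000108821, chr17:50184101-50201632), a chain of collagen I, had 8.83 and 10.5 CPM untreated, 4.33 and 2.85 with IFN-γ, 6.84 and 8.36 with both and 9.08 and 9.45 with AX-0085. The IFN-γ libraries were lowest and the untreated and AX-0085 libraries overlapped. It fell by 1.45 with IFN-γ (SE 0.18, edgeR adjusted p = 8.98e-06) and rose by 1.10 when AX-0085 was added (SE 0.19, edgeR adjusted p = 1.71e-04). That rise was 0.79 without IFN-γ replicate 2 and 0.95 without replicate 2 of the combined group, both under the 2-fold limit. Its partner chain COL1A2 was at 0 counts throughout.

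COL5A1 (ENSG00000130635, chr9:134641803-134844843), the collagen V chain that nucleates fibrils, had 96.4 and 105.3 CPM untreated, 85.5 and 92.4 with IFN-γ, 56.3 and 58.3 with both and 50.7 and 48.4 with AX-0085. All libraries with AX-0085 lay below all libraries without it. With AX-0085 alone it fell by 1.02 (SE 0.07, edgeR adjusted p = 9.01e-08), a value of -0.96 without untreated replicate 2 and of -0.99 without AX-0085 replicate 2. With AX-0085 added to IFN-γ the value was -0.64 (SE 0.07), under the 2-fold limit.

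Collagen VI, the beaded filament collagen, is assembled from one copy each of its chains. COL6A1 (ENSG00000142156, chr21:45981770-46005050) had 29.3 and 32.4 CPM untreated, 9.67 and 12.5 with IFN-γ, 32.3 and 33.7 with both and 35.1 and 35.5 with AX-0085. The IFN-γ libraries stood apart below the other 6. It fell by 1.46 with IFN-γ (SE 0.11, edgeR adjusted p = 6.32e-08) and rose by 1.56 when AX-0085 was added (SE 0.11, edgeR adjusted p = 4.17e-08), and the value for both against untreated was 0.10 (SE 0.10). COL6A2, its neighbour on chromosome 21, was called nowhere and had a value of 0.12 with IFN-γ (SE 0.12). Per length, COL6A1 was at 1.28 and 1.12 times COL6A2 in untreated libraries, 0.346 and 0.444 times with IFN-γ, 1.55 and 1.39 times with both and 1.45 and 1.78 times with AX-0085. COL6A3, the third chain, had 74 counts in total.

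Of the fibril-associated collagens, COL12A1 (ENSG00000111799, chr6:75084326-75206267), found on collagen I fibrils, had 9.73 and 8.11 CPM untreated, 27.7 and 36.8 with IFN-γ, 8.06 and 8.63 with both and 5.42 and 5.57 with AX-0085. The IFN-γ libraries were highest, those with AX-0085 alone were lowest, and the untreated and combined libraries overlapped. It rose by 1.85 with IFN-γ (SE 0.13, edgeR adjusted p = 4.54e-08) and fell by 1.96 when AX-0085 was added (SE 0.14, edgeR adjusted p = 3.77e-08). COL21A1 (ENSG00000124749, chr6:56056590-56394094) moved the other way. It had 6.29 and 5.46 CPM untreated, 0.264 and 0.0402 with IFN-γ, which were 5 counts and 1 count, 2.40 and 2.11 with both and 9.64 and 8.51 with AX-0085. The IFN-γ libraries were lowest and those with AX-0085 alone highest, without overlap between groups.

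COL21A1 fell by 5.38 with IFN-γ (SE 0.35, edgeR adjusted p = 1.75e-08), the largest change of any member in that comparison. The size rests on those few counts, since it was -7.03 without IFN-γ replicate 1 and -4.41 without IFN-γ replicate 2. AX-0085 added to IFN-γ raised it by 4.00 (SE 0.43, edgeR adjusted p = 2.45e-06), or by 5.66 and 3.08 without the same 2 libraries. Cells with both agents had a value of -1.37 against untreated cells (SE 0.19, edgeR adjusted p = 4.07e-05).

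COL16A1 (ENSG00000084636, chr1:31652263-31704319) was called only with AX-0085 alone. It had 3.64 and 3.30 CPM untreated, 2.69 and 3.02 with IFN-γ, 2.46 and 2.25 with both and 1.24 and 2.03 with AX-0085. The libraries with AX-0085 alone were lowest and spread widest. The value was -1.08 (SE 0.22, edgeR adjusted p = 9.72e-04), and it was -0.77 without AX-0085 replicate 1 and -0.99 without untreated replicate 1. COL26A1 (ENSG00000160963, chr7:101362875-101559024), a collagen first described in testis and ovary, had 2.95 and 3.14 CPM untreated, 0.475 and 0.241 with IFN-γ, 1.70 and 2.16 with both and 2.67 and 2.41 with AX-0085. The IFN-γ libraries, with 9 and 6 counts, stood below all others, and no groups overlapped. It fell by 3.13 with IFN-γ (SE 0.31, edgeR adjusted p = 9.23e-07) and rose by 2.45 when AX-0085 was added (SE 0.33, edgeR adjusted p = 2.53e-05).

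**Figure D4:**
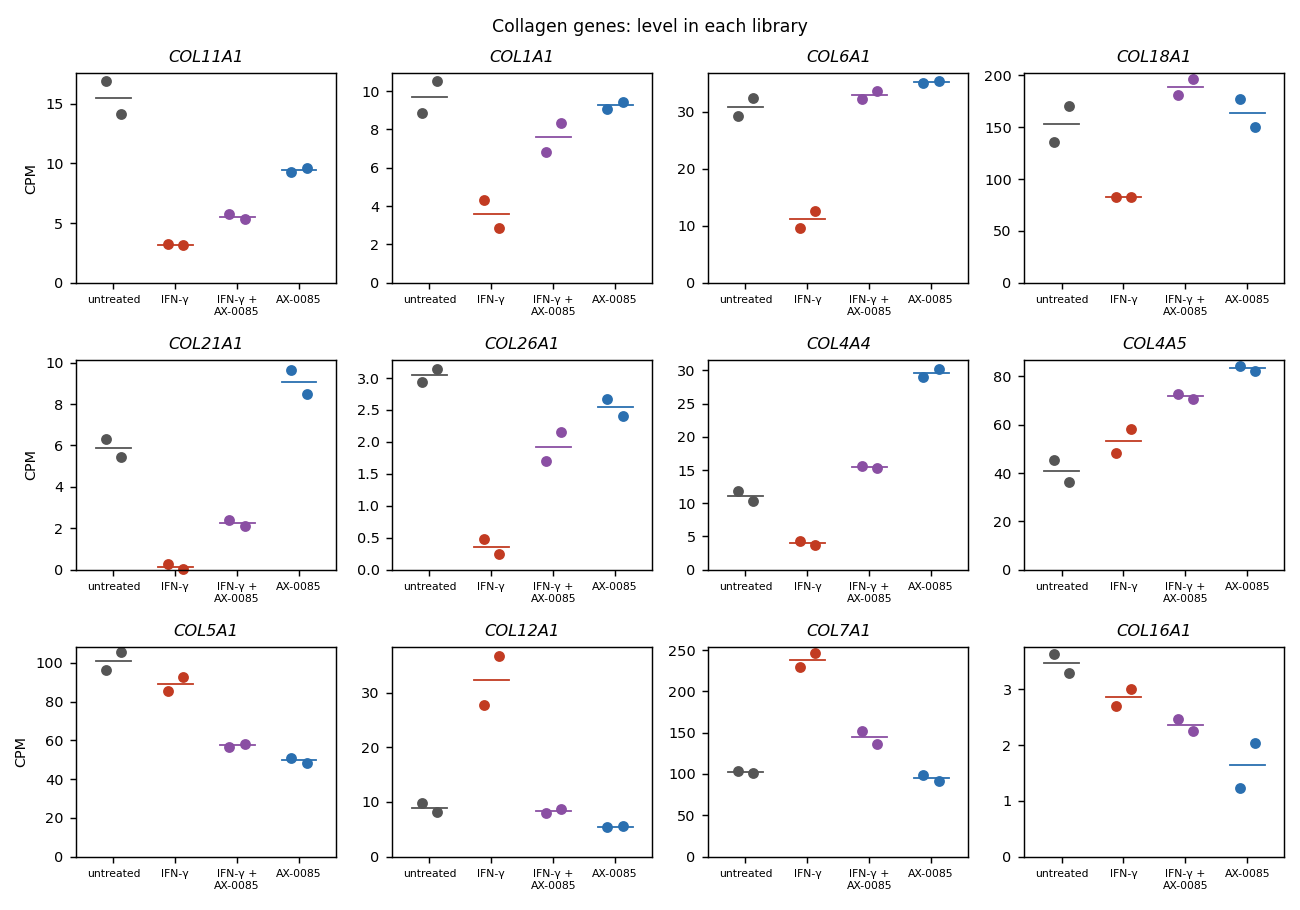
CPM of 12 collagen genes in each library (points, 2 per group), with a bar at the group mean and each axis starting at 0. The first 7 genes are lowest in the IFN-γ libraries, COL12A1 and COL7A1 are highest there, and COL4A4 and COL4A5 are highest with AX-0085 alone.

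The remaining called collagens had under 1 CPM on average. COL20A1 had 16 counts over both untreated libraries, 2 with IFN-γ, 79 with both and 93 with AX-0085. Its level with both agents was 32.3 times that with IFN-γ (95% counting interval 8.66 to 271.6), and its untreated level was 6.40 times that with IFN-γ (1.50 to 57.4). The call of that fall was lost without either untreated library or IFN-γ replicate 2, with edgeR adjusted p of 0.0529, 0.0757 and 0.236. It also rose with AX-0085 alone, 6.06-fold (SE 0.40 on the log2 scale). COL13A1, a transmembrane collagen, had 21 and 6 counts untreated, 5 and 13 with IFN-γ, 3 and 2 with both and 0 and 2 with AX-0085. It met the count limit only through its untreated group, with 25 counts elsewhere, so its lower level in other groups was partly fixed by the selection and no ratio is given. In the IFN-γ libraries COL9A3 had 1 and 3 counts, and in those with both agents 20 and 3, a ratio of the sums of 4.71 (1.61 to 18.7) that rests on 1 library. Its log2 value of 2.16 was called, but it was 0.54 with an edgeR adjusted p of 0.691 without replicate 1 of the combined group, and without either IFN-γ library it was not called. It too met the limit only through its highest group, the one with both agents. COL19A1 rose with AX-0085 alone by 1.19 (SE 0.34), a call lost without untreated replicate 2 (0.89, edgeR adjusted p = 0.0922) and without AX-0085 replicate 1 (1.15, edgeR adjusted p = 0.0526).

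In all, 22 members were called in at least 1 of the comparisons and 15 in none. The same share over all genes was not computed. The shares of all genes given elsewhere, such as 10.3% and 17.2% with IFN-γ alone, each belong to 1 comparison. A share over several comparisons is at least as large for all genes as well. The number is therefore a tally only and cannot be set against those shares. Among the 22 are COL9A3, COL13A1 and COL17A1, which met the count limit only through their highest group. The 15 were COL11A2, COL27A1, COL5A2, COL4A1, COL4A2, COL4A6, COL6A2, COL6A3, COL22A1, LAMA2, LAMA5, LAMB1, LAMB4, LAMC1 and LAMC3. Their log2 values ran from -1.23 to 0.66 with IFN-γ, from -0.81 to 1.57 with AX-0085 added to IFN-γ, and from -0.78 to 1.12 with AX-0085 alone, and the values beyond the 2-fold limit belonged to LAMB4, with 56 counts in total. The most abundant of the 15 were LAMA5, LAMB1 and LAMC1.

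The effect of AX-0085 in the presence of IFN-γ was compared with its effect alone through the interaction term of the same edgeR fit, which uses all 4 groups. Of the 37 members, 7 had a higher and 3 a lower value with IFN-γ present than without, where 12.1% and 6.46% of all genes tested did. Among the 7 was COL17A1, whose selection rested on its untreated group. The median over the members was 0.39, beside 0.05 over all genes. COL21A1 had the largest term, 3.38 (SE 0.49, edgeR adjusted p = 8.05e-05), which was 5.04 without IFN-γ replicate 1 and 2.45 without IFN-γ replicate 2. Terms below 0 included those of COL12A1, -1.26 (SE 0.21, edgeR adjusted p = 2.73e-04), and LAMB3, -1.13 (SE 0.12, edgeR adjusted p = 5.68e-06). COL6A1 and COL18A1 had values of 0.20 and 0.10 for AX-0085 alone, each with an SE of 0.10, and terms of 1.36 (SE 0.15) and 1.09 (SE 0.14), the second under the 2-fold limit without untreated replicate 2 or AX-0085 replicate 2. For LAMA3 and LAMB2 the terms were 0.11 (SE 0.13, 95% interval -0.18 to 0.40) and -0.23 (SE 0.09, 95% interval -0.44 to -0.03), and neither was called.

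**Figure D5:**
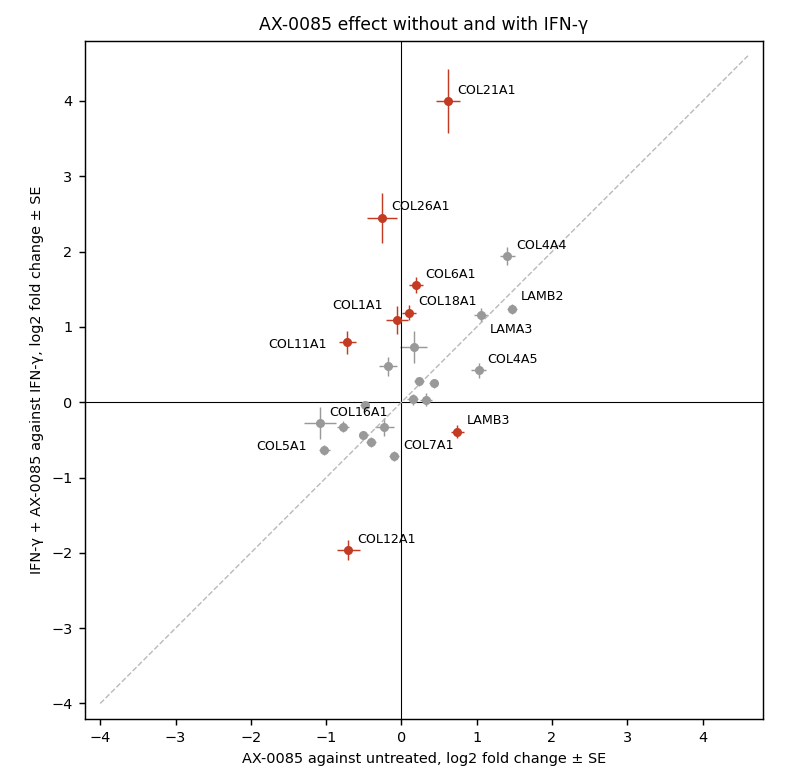
Log2 fold change with AX-0085 alone (horizontal axis) against that with AX-0085 added to IFN-γ (vertical axis), with SE bars, for the reported members with at least 1 CPM on average. The 2 axes share no libraries. Red points have a called interaction term, and on the dashed line both values would be equal. LAMA3 and LAMB2 lie near the line, COL21A1 and COL26A1 far above it and COL12A1 and LAMB3 below.

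The machinery that hydroxylates, folds, exports and cross-links collagen was listed as 33 genes, of which 27 were tested. With IFN-γ 4 rose and 5 fell (median -0.08 on the log2 scale), with AX-0085 added 5 rose and 4 fell (0.42), with AX-0085 alone 2 rose and 1 fell (0.05), and with both against untreated 2 rose and 0 fell (-0.01). Among all genes, 10.3% rose and 17.2% fell with IFN-γ (median -0.06), and 16.5% and 8.28% with AX-0085 added (0.03). The shares were 6.41% and 5.62% with AX-0085 alone (0.01) and 7.51% and 7.23% with both against untreated (0.01). PLOD2, which hydroxylates telopeptide lysines, rose by 1.30 with IFN-γ (SE 0.07) and fell by 1.93 when AX-0085 was added (SE 0.07). MIA3, which loads procollagen into transport carriers, rose by 1.09 with IFN-γ (SE 0.07), had a value of 0.06 for added AX-0085 and was 1.15 above untreated with both. The prolyl hydroxylase subunit P4HA2 fell by 1.32 with IFN-γ (SE 0.08) and rose by 1.29 with added AX-0085 (SE 0.08). P3H3 and P3H4, of the prolyl 3-hydroxylase family, had values of -1.56 and -1.05 with IFN-γ, both called, and the added AX-0085 gave 0.88, under the 2-fold limit, and a rise of 1.12.

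Of 19 listed genes for other basement membrane proteins 14 were tested, and 1 rose and 4 fell with IFN-γ (median -0.18), 2 rose and 3 fell with AX-0085 added (0.53), 1 rose and 2 fell with AX-0085 alone (-0.22) and the same numbers with both against untreated (-0.31). The shares of all genes in this order were 10.3% and 17.2%, 16.5% and 8.28%, 6.41% and 5.62%, and 7.51% and 7.23%. NID2, a nidogen that links laminin to collagen IV, rose by 1.91 with IFN-γ (SE 0.12) and fell by 2.36 when AX-0085 was added (SE 0.12), and 30.7% of its exon bases lie in exons of other genes. FBLN1, a fibulin, fell by 1.57 with IFN-γ (SE 0.08) and rose by 1.15 with added AX-0085 (SE 0.09).

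Receptors for collagen and laminin were listed as 20 genes and 17 were tested. With IFN-γ 3 rose and 5 fell (median -0.46), with AX-0085 added 5 rose and 3 fell (0.11), and with AX-0085 alone, and with both against untreated, 1 rose and 0 fell (0.22 and -0.05). For all genes the shares in this order were 10.3% and 17.2%, 16.5% and 8.28%, 6.41% and 5.62%, and 7.51% and 7.23%. ITGA2, the alpha subunit of a collagen-binding integrin, rose by 1.20 with IFN-γ (SE 0.13), and the added AX-0085 gave -0.55 (SE 0.13), under the 2-fold limit. DAG1, dystroglycan, and BCAM, which binds the LAMA5 chain, had called values of -1.34 (SE 0.06) and -1.07 (SE 0.07) with IFN-γ, and rose by 1.04 (SE 0.06) and 1.74 (SE 0.07) when AX-0085 was added.

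Matrix-degrading enzymes and their inhibitors were listed as 28 genes, of which 13 were tested. With IFN-γ 1 rose and 4 fell (median -0.49), with AX-0085 added 3 rose and 0 fell (0.49), with AX-0085 alone 1 rose and 2 fell (0.00), and with both against untreated 2 rose and 2 fell (-0.16). Here too the shares of all genes were 10.3% and 17.2%, 16.5% and 8.28%, 6.41% and 5.62%, and 7.51% and 7.23%. CTSS, the cysteine protease cathepsin S, rose by 2.23 with IFN-γ (SE 0.08) and by 1.20 with AX-0085 alone (SE 0.08), and remained 1.77 above untreated with both (SE 0.08). The metalloproteases MMP15 and MMP7 each fell by 2.92 with IFN-γ (SE 0.10 and 0.19). Added AX-0085 raised MMP15 by 1.57 (SE 0.11), and the value for MMP7 was 0.62 (SE 0.24), under the 2-fold limit.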

How the data were processed

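Per the labels and the study's methods, stranded mRNA libraries (TruSeq) of A549 cells were sequenced as paired reads, trimmed with Trim Galore 0.6.7, aligned to GRCh38 with STAR 2.7.9a and counted with featureCounts. The deposited values are raw counts per Ensembl gene, which the authors tested with DESeq2. The annotation release and the strand setting of the counting are not given in the sources used here.

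Counts were fitted with edgeR 4.0.16 in R 4.3.3 (quasi-likelihood test, TMM factors, filterByExpr, 1 model of the 4 groups over 8 libraries). A gene was called at a Benjamini-Hochberg adjusted p under 0.05 over 15066 genes with a change over 2-fold. Log2 fold changes use a prior count of 0.125, CPM use TMM-scaled library sizes, and RPKM divide by the GENCODE 44 canonical transcript length. An exact permutation test of 2 against 2 libraries cannot give a two-sided p below 0.333, so none was run. Values of 1 member are not reported here, although counts over the members include it. Members called at 1 CPM or more on average were described in full, rarer called members in fewer words and the others by range. From each related list, up to 3 genes per direction were named, those with the largest change among the genes called with IFN-γ at a mean log2 CPM of 2 or more. The members and lists were chosen with earlier results of these data known. Of 34 genes listed for collagen processing, 33 matched a symbol. Promoter windows are from RefSeq on GRCh38.p14. Alternatives were DESeq2 1.42.0, other scalings and filters, the fold limit, a replicate block, each library left out and, chosen after the data were seen, counts without the members that met the count limit through 1 group.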

Additional observations from a re-analysis of the deposited data

Results flagged for a closer look

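The effect of AX-0085 differed between cells with and without IFN-γ in 8 of the members reported, leaving COL17A1 aside, by the interaction term of the edgeR fit, which is the log2 change with AX-0085 in IFN-γ-treated cells minus that in cells without IFN-γ. The term was positive in 6 of them. Among all genes tested, 12.1% had a called term above 0 and 6.46% a called term below 0. It was 3.38 for COL21A1 (4.00 against 0.62), 2.71 for COL26A1 (2.45 against -0.26), 1.51 for COL11A1 (0.80 against -0.72), 1.36 for COL6A1 (1.56 against 0.20), 1.16 for COL1A1 (1.10 against -0.06) and 1.09 for COL18A1 (1.19 against 0.10). The calls of the last 2 depended on 1 library, since the term was 0.84 for COL1A1 without IFN-γ replicate 2 and, for COL18A1, 0.91 without untreated replicate 2 and 0.97 without AX-0085 replicate 2. The term was negative for COL12A1, at -1.26 (-1.96 against -0.70) and for LAMB3, at -1.13 (-0.39 against 0.74). The adjusted p of these edgeR tests ranged from 5.68e-06 for LAMB3 to 0.00142 for COL1A1. COL17A1 also had a called term, 2.30 (0.01 against -2.29), but it met the count limit only through its untreated group, so the term was partly fixed by the selection, and the call was lost without AX-0085 replicate 1, IFN-γ replicate 1 or replicate 2 of the combined group (edgeR adjusted p = 0.0541, 0.0563 and 0.119).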

How the results depend on the processing

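With 2 libraries per group, single calls near the 2-fold limit or at low counts depended on 1 library. None of the 53 called values of single genes changed direction under the alternatives run, and values that were not called were not followed. With the adjusted p alone (edgeR) as the limit, the members counted 13 higher and 13 lower with IFN-γ, 16 and 11 with AX-0085 added to IFN-γ, 11 and 12 with AX-0085 alone, 12 and 10 with both against untreated, and 13 and 5 in the interaction. The shares of all genes at that limit were 32.1% and 36%, 33.7% and 32.8%, 26.7% and 26.6%, 28.1% and 28.8%, and 26.7% and 23.6% in the same order. With at least 10 counts in every library, which removes the rarest members, 26 members among 12379 genes were tested. Of these 26 members, 4 fell with IFN-γ, and 6 rose and 2 fell with AX-0085 added. With AX-0085 alone 3 fell, with both against untreated 2 fell, and 4 had a higher interaction term. Of the 12379 genes, 1716 fell with IFN-γ, 1568 rose and 835 fell with AX-0085 added, and 569 fell with AX-0085 alone. With both against untreated 701 genes fell, and 1315 had a higher interaction term. Under this filter at least 4 members still rose with IFN-γ, at least 4 with AX-0085 alone and at least 2 with both against untreated. At least 3 had a lower interaction term. Of the 12379 genes, 1125, 520 and 684 rose in these comparisons, and 769 had a lower interaction term. These counts are out of fewer members and genes than the main counts. Leaving out 1 library gave 3 to 6 members higher with AX-0085 alone, the 3 without untreated replicate 2, and 3 to 5 higher with both against untreated, the 5 without untreated replicate 1. Of the called values, calls were lost without 1 library for COL1A1 in the interaction (0.84 without IFN-γ replicate 2) and for COL18A1 in the interaction (0.91 without untreated replicate 2, 0.97 without AX-0085 replicate 2). The COL13A1 calls, partly fixed by its selection, were lost without IFN-γ replicate 2 (AX-0085 added) and without untreated replicate 1 (AX-0085 alone, and both against untreated). Its calls with AX-0085 added and with both against untreated were also lost without either library with both agents. Other lost calls are given with their genes above. DESeq2 did not call COL9A3 and COL13A1 with AX-0085 added, COL13A1 and LAMA4 with both against untreated, COL19A1 with AX-0085 alone, or COL17A1 in the interaction, at adjusted p of 0.0691 to 0.096. Scaling by library totals alone moved the median of all genes by -0.12 log2 with IFN-γ, 0.12 with AX-0085 added and 0.12 in the interaction. The count columns carry the letter A for replicate 1 and B for replicate 2. No shared effect of replicate number was detected, with correlations of same-numbered deviations from -0.0738 to 0.0444. These were taken over all genes kept, rare ones included, so a weak pairing could go unseen. A fit with the replicate block gave 5 and 8, 10 and 4, 6 and 6, 3 and 6, and 7 and 3 members higher and lower, as without it. Where a library was left out, the lone library of its group is assumed to vary like the others.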

Other observations

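Summed over the members, the laminins reached 1389 and 1323 CPM in untreated libraries, 1986 and 2141 with IFN-γ, 2114 and 2097 with both agents and 1641 and 1528 with AX-0085. The collagens summed to 1318 and 1325, 1322 and 1442, 1288 and 1305, and 1143 and 1099 CPM in the same order. The laminin sum was lowest in the untreated libraries and the collagen sum lowest in those with AX-0085 alone. These sums weigh abundant genes most and were not tested.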
